A study of Mus musculus with 18 samples.

Results

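The 10 genes examined are the bone morphogenetic protein (BMP) ligand genes Bmp2 and Bmp4, the BMP antagonist gene Grem1, the transforming growth factor beta (TGF-beta) ligand genes Tgfb1, Tgfb2 and Tgfb3, the activin subunit gene Inhba, and the target genes Id1, Id2 and Id3. They were taken by name from a table of 54752 mouse genes, and they were chosen by the measured direction of Bmp2, which was higher in HM-1 cultures and tumors labelled Cd276KO and lower in ID8 cultures with that label. The values of Bmp2 in those 3 contrasts are therefore a description and were not tested. The other 9 genes were tested with edgeR in a fit over all genes.

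Ligands of this superfamily bind pairs of serine/threonine kinase receptors, which phosphorylate SMAD proteins. BMP receptors act mainly through SMAD1, SMAD5 and SMAD9, while TGF-beta and activin receptors act mainly through SMAD2 and SMAD3, and SMAD4 joins both branches. Id genes are well known immediate targets of BMP signalling, and their products hold E protein transcription factors away from DNA. In ovarian epithelium and its cancers, members of this family act on proliferation and on the shift towards a mesenchymal state.

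RNA was sequenced from 6 groups of 3 libraries, to ask what depletion of B7-H3, the product of Cd276 and a cell-surface relative of the checkpoint ligand PD-L1, does to ovarian cancer cells and tumors. The groups were cultured ID8 cells labelled Cd276KO and their control (strain C57BL6 in the labels), HM-1 tumors labelled Cd276KO and control HM-1 tumors, and cultured HM-1 cells labelled Cd276KO and their control (strain B6C3F1). HM-1 is a mouse ovarian cancer line, and ID8 cells come from the surface epithelium of the mouse ovary. Tumors grew from 1000000 HM-1 cells placed intradermally in B6C3F1 mice and were taken on day 10, so they can also hold host cells. Libraries of a group are labelled as biological replicates. How Cd276 was edited, whether a line is 1 clone and how many animals were used are not given, so the spread behind each p-value may be technical.

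Total counts were 17349082 to 30959773 per library. The log2 fold change of Cd276 itself was -0.038 in ID8 cells labelled Cd276KO (edgeR adjusted p = 0.692), -0.45 in tumors (adjusted p = 0.105) and -0.85 in HM-1 cells (adjusted p = 0.00146). The position of the edit is not given, so reads outside it do not check the label. A chi-square value per gene of 71.3 and 69.9 set HM-1 control library 1 off from the other two HM-1 controls, which differed by only 1.62. Control tumor 3 was likewise set off from control tumors 1 and 2 (149 and 90.5, against 45.4 between those). It held the highest summed levels of 6 neutrophil markers (118 counts per 1000000 counted reads, CPM) and 5 keratinocyte markers (208 CPM) of the tumors, and the lowest of 8 fibroblast markers (535 CPM). Of 10 ovarian epithelial and mesothelial markers, 4 averaged at least 1 CPM in each group of HM-1 cells, and 7 in each group of ID8 cells. In tumors 6 did so under the Cd276KO label and 8 in controls. Krt18 averaged at least 398 CPM in each group, and Epcam had no count in either group of HM-1 cells. Wt1 averaged 672 CPM in Cd276KO ID8 cells and 573 CPM in ID8 controls, against 0.03 and 0.02 CPM in the HM-1 cells.

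Grem1 and Tgfb2 shared a pattern that the choice of genes did not use. Both were at no more than 0.36 CPM in each of the 6 HM-1 cultures, at 55.8 CPM or more in ID8 control cells, and lower in ID8 cells labelled Cd276KO. Their RefSeq promoters are printed for that reason, as the 250 bases before the annotated start, in the direction of the gene. The capitals mark CAGAC, the core of the site bound by SMAD3 and SMAD4, and GGCGCC, a GC-rich element bound by SMADs of the BMP branch. Grem1 lies on the minus strand, with its window at chr2:113758649-113758898 (GRCm38.p6). Tgfb2 also lies on the minus strand, with its window at chr1:186705990-186706239.
Grem1: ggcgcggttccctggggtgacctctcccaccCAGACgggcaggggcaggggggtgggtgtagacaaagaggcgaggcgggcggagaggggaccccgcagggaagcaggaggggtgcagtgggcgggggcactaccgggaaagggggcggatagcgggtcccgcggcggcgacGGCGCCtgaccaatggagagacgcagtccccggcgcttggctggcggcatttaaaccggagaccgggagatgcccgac
Tgfb2: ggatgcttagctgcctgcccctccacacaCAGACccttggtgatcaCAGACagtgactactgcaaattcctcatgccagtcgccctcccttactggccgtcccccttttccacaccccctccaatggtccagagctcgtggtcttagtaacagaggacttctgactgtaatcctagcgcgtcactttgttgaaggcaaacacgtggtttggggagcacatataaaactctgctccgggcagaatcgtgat
The Grem1 window held 1 GGCGCC and 1 CAGAC, and the Tgfb2 window held 2 CAGAC, with both strands searched and no overlap between the motifs. Of 32544 such windows, 42.2% held CAGAC and 9.65% held GGCGCC, and a match is a description of the sequence only. Of the 7 genes in the RefSeq table, Bmp4, Tgfb1 and Inhba held neither motif in this window. Id2 held 1 GGCGCC and Id3 held 2 CAGAC, but those windows lie inside the longer GENCODE gene models and are not printed. Bmp2, Id1 and Tgfb3 were not matched.

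Bmp2 (chr2:133552159-133562885, plus strand in GRCm38 with GENCODE M21), whose product induces bone and cartilage and acts in many epithelia, had 16.4, 18.9 and 21.3 CPM in ID8 cells labelled Cd276KO, against 49.6, 53.9 and 53.2 CPM in ID8 controls. Tumors labelled Cd276KO had 115, 154 and 118 CPM, against 31.0, 28.0 and 21.8 CPM in control tumors. HM-1 cells labelled Cd276KO had 125, 123 and 110.3 CPM, against 23.3, 24.5 and 25.2 CPM in HM-1 controls. These contrasts chose the gene: the log2 fold changes of -1.39 ± 0.08, 2.30 ± 0.16 and 2.34 ± 0.08 (SE) are given as a description. The levels in tumors and in the matching cultures lay close together. In bulk tumors, fewer cells of a type and less RNA per cell cannot be told apart. Control tumors and control cells differed by 0.0021 ± 0.16 on the log2 scale (edgeR adjusted p = 0.993), and Cd276KO tumors and cells by -0.025 ± 0.10 (adjusted p = 0.833). The second of these became -0.16 (adjusted p = 0.0437) without Cd276KO tumor 2, the highest of its group. ID8 controls were above HM-1 controls by 1.06 ± 0.09, given as a description. The same library values went into the contrasts that chose the gene, so these differences between groups are not independent of that choice. In order of group means, Bmp2 was lowest in Cd276KO ID8 cells (18.9 CPM), then in HM-1 control cells (24.3) and control tumors (26.9), whose ranges overlapped, then in ID8 controls (52.2), and highest in Cd276KO HM-1 cells (119.6) and Cd276KO tumors (129), whose ranges also overlapped.

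Bmp4 (chr14:46383520-46390669, minus strand), which encodes a ligand close to BMP2 in sequence, fell in ID8 cells labelled Cd276KO. It had 146, 139.8 and 139 CPM there, against 231, 246 and 243 CPM in ID8 controls (log2 fold change -0.68 ± 0.06, edgeR adjusted p = 2.91e-10). The 2 groups of ID8 cells did not overlap. In tumors, Bmp4 had 228, 235 and 236 CPM under the Cd276KO label, against 192, 213 and 156 CPM in controls. Every Cd276KO tumor was above every control tumor, but the difference of 0.36 ± 0.12 was not called by edgeR (adjusted p = 0.115), while DESeq2 called it (adjusted p = 0.0396). HM-1 cells labelled Cd276KO had 114, 111 and 104 CPM, against 99.5, 108 and 102 CPM in HM-1 controls, and these ranges overlapped (0.13 ± 0.07, adjusted p = 0.233). Without HM-1 control library 1 the value was 0.12 and was called (adjusted p = 0.0193). Bmp4 was higher in tumors than in cells, by 0.71 ± 0.14 in controls (adjusted p = 0.00654) and by 0.96 ± 0.06 under the Cd276KO label (adjusted p = 1.16e-06). ID8 controls stood above HM-1 controls by 1.18 ± 0.08 (adjusted p = 6.66e-06).

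**Figure D1:**
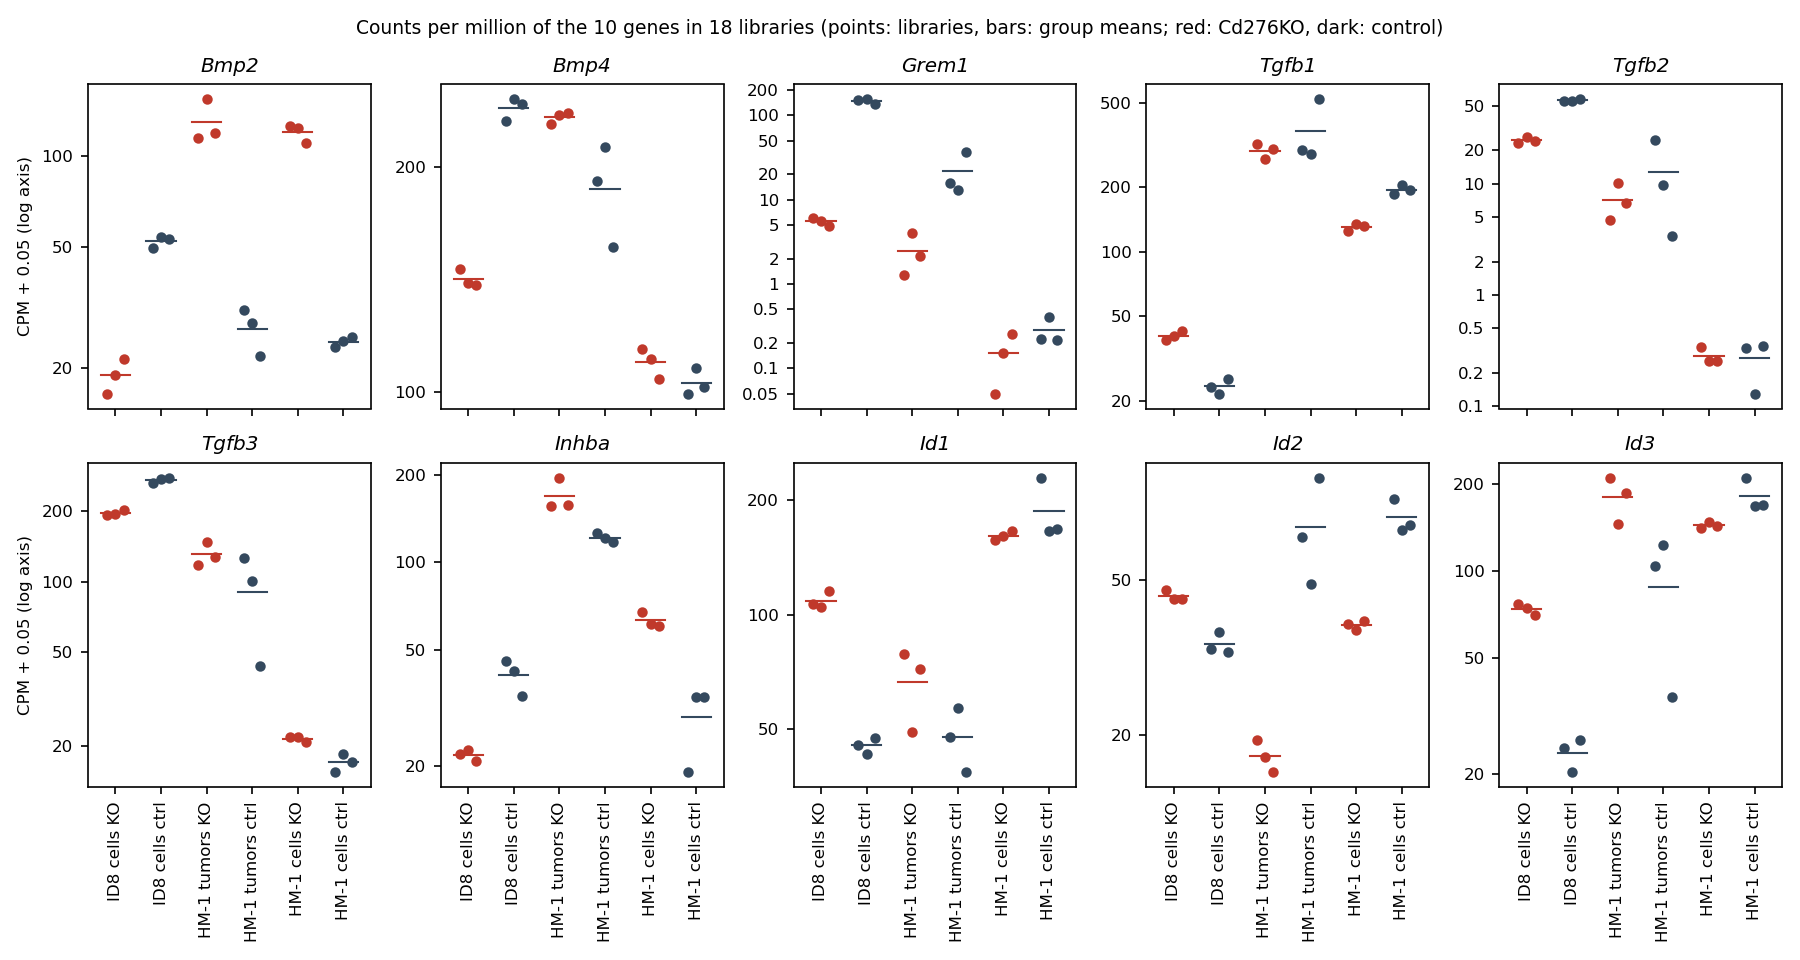
CPM plus 0.05 of the 10 genes (log axes) in the 18 libraries, with Cd276KO groups in red left of their controls in dark and bars at the group means. Bmp2 is high in Cd276KO tumors and HM-1 cells and low in Cd276KO ID8 cells, and Grem1 and Tgfb2 are near 0 in HM-1 cells.

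Grem1 (chr2:113746164-113758646, minus strand) encodes gremlin 1, a secreted protein that binds BMP2 and BMP4 and keeps them from their receptors. It fell most of the 9 tested genes in ID8 cells. ID8 cells labelled Cd276KO had 6.05, 5.59 and 4.75 CPM, against 151, 154 and 137 CPM in ID8 controls. The fitted level was 25.5-fold lower (log2 fold change -4.67 ± 0.08, edgeR adjusted p = 6.26e-22). Grem1 also fell in tumors, to 1.22, 4.002 and 2.08 CPM under the Cd276KO label, against 15.5, 13.1 and 36.0 CPM in control tumors (-3.13 ± 0.59, adjusted p = 0.038). The tumor groups did not overlap, yet the call rested on all but 1 of the libraries. It was -2.47 and still called without control tumor 3, and it was -3.33 without control tumor 1 (adjusted p = 0.0548), -3.40 without control tumor 2 (0.0568), -2.82 without Cd276KO tumor 1 (0.139), -3.67 without Cd276KO tumor 2 (0.0886) and -3.01 without Cd276KO tumor 3 (0.182). HM-1 cells held 6 Grem1 counts in all 3 Cd276KO libraries and 16 in the 3 controls, too few to test.

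Over all tumors together, the Grem1 level was not in the order of the fibroblast markers (Col1a1, Col1a2, Col3a1, Pdgfra, Dcn, Lum, Thy1 and Fap, all 8 with counts in both tumor groups and none at 0). Their summed level was 3635 to 6411 CPM in Cd276KO tumors and 535 to 17910 CPM in control tumors. Control tumor 3, lowest in these markers, had the highest Grem1 level. Within the Cd276KO tumors alone, the Grem1 level was in the order of the marker sum. Grem1 was higher in tumors than in cells by 6.35 ± 0.59 in controls (edgeR adjusted p = 0.000527, 5.71 to 6.78 with 1 library left out) and by 4.39 ± 0.71 under the Cd276KO label (adjusted p = 0.000449, 3.77 to 5.30 with 1 library left out). ID8 controls stood above HM-1 controls by 9.20 ± 0.20 (adjusted p = 2.80e-08).

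Tgfb1 (chr7:25687002-25705077, plus strand), the TGF-beta ligand gene expressed by most cell types, moved in opposite directions in the cultures. ID8 cells labelled Cd276KO had 38.5, 40.1 and 42.2 CPM, against 23.2, 21.5 and 25.3 CPM in ID8 controls (0.86 ± 0.08, edgeR adjusted p = 1.17e-09). HM-1 cells labelled Cd276KO had 125, 134 and 132 CPM, against 186, 205 and 193 CPM in HM-1 controls (-0.54 ± 0.07, adjusted p = 0.00278). Neither pair of groups overlapped, so Tgfb1 rose in one line and fell in the other. Tumors overlapped, with 319, 271 and 301 CPM under the Cd276KO label and 301, 287 and 518 CPM in controls (-0.28 ± 0.27, adjusted p = 0.560). The control value of 518 CPM was library 3, and without it the difference was 0.10 (adjusted p = 0.637). Tumors were above cells by 0.79 ± 0.25 in controls (adjusted p = 0.0409) and by 1.06 ± 0.08 under the Cd276KO label (adjusted p = 6.30e-06). The first of these calls was lost without HM-1 control library 1, 2 or 3 (0.77, 0.79 and 0.74, with adjusted p of 0.108, 0.108 and 0.123) and with no filter (0.65, 0.0521).

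Tgfb2 (chr1:186622792-186705989, minus strand), the isoform known for its role in heart, eye and epithelial development, fell in ID8 cells. ID8 cells labelled Cd276KO had 23.3, 26.7 and 24.2 CPM, against 56.2, 55.8 and 57.8 CPM in ID8 controls (-1.12 ± 0.07, edgeR adjusted p = 3.01e-12). All 3 Cd276KO libraries were under all 3 controls. Tumors had 4.67, 10.2 and 6.63 CPM under the Cd276KO label and 24.9, 9.80 and 3.34 CPM in controls, in the order of the fibroblast marker sum over the 6 tumors. The difference of -0.77 ± 0.66 was not called (adjusted p = 0.516), and it was 0.16 without control tumor 1 (adjusted p = 0.875), the tumor with the highest fibroblast sum. HM-1 cells held 14 Tgfb2 counts in each group of 3 libraries and were not tested. Against the cells, tumors were higher by 5.71 ± 0.90 in controls (adjusted p = 0.00295) and by 4.77 ± 0.38 under the Cd276KO label (adjusted p = 5.75e-06). With 1 library left out these were 4.76 to 6.15 and 4.43 to 4.98.

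Tgfb3 (chr12:86056745-86079041, minus strand), a TGF-beta isoform needed for fusion of the palate, had the highest level per kilobase of exon of the 3 TGF-beta ligand genes in ID8 controls. ID8 cells labelled Cd276KO had 193, 194 and 201 CPM, against 262, 274 and 278 CPM in ID8 controls (-0.39 ± 0.055, edgeR adjusted p = 1.84e-06). HM-1 cells labelled Cd276KO had 21.7, 21.8 and 20.8 CPM, against 15.4, 18.5 and 17.0 CPM in HM-1 controls (0.38 ± 0.09, adjusted p = 0.0208). Neither pair of groups overlapped, so Tgfb3 fell in ID8 cells and rose in HM-1 cells. The HM-1 call was lost without control library 3 (0.37, adjusted p = 0.066) and without Cd276KO library 1 (0.37, 0.0851), 2 (0.37, 0.0851) or 3 (0.39, 0.0732), and also with no filter (0.36, 0.0557) and in the fit over all 18 libraries (0.37, 0.296). Tumors overlapped, with 118, 147 and 128 CPM under the Cd276KO label and 126, 101 and 43.5 CPM in controls (0.59 ± 0.33, adjusted p = 0.317). The lowest value was again control tumor 3. Tumors were above cells by 2.26 ± 0.36 in controls (adjusted p = 0.00301) and by 2.48 ± 0.08 under the Cd276KO label (adjusted p = 8.03e-08).

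The 3 TGF-beta ligand transcripts were also compared per length, as shares of their summed CPM per kilobase of exon. Tgfb3 made up 82.6% ± 0.5 of the sum in ID8 cells labelled Cd276KO and 84.8% ± 0.5 in ID8 controls (SD, n = 3 each). Tgfb1 made up 11.4% ± 0.2 and 4.89% ± 0.35 in the same groups. In HM-1 cells Tgfb1 led, with 80.2% ± 0.8 under the Cd276KO label and 88.4% ± 0.4 in controls. Tumors lay between the lines, with a Tgfb1 share of 59.6% ± 4.9 under the Cd276KO label and 70.6% ± 15.7 in controls. The control tumors were uneven, at 58.9%, 64.3% and 88.4%, and the last of these, library 3, was as high as HM-1 control cells. Between the control lines, ID8 was above HM-1 by 7.999 ± 0.24 for Tgfb2 and 3.96 ± 0.10 for Tgfb3, and below it by -3.10 ± 0.10 for Tgfb1 (edgeR adjusted p = 8.44e-08, 4.11e-08 and 1.38e-07, log2 scale).

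**Figure D2:**
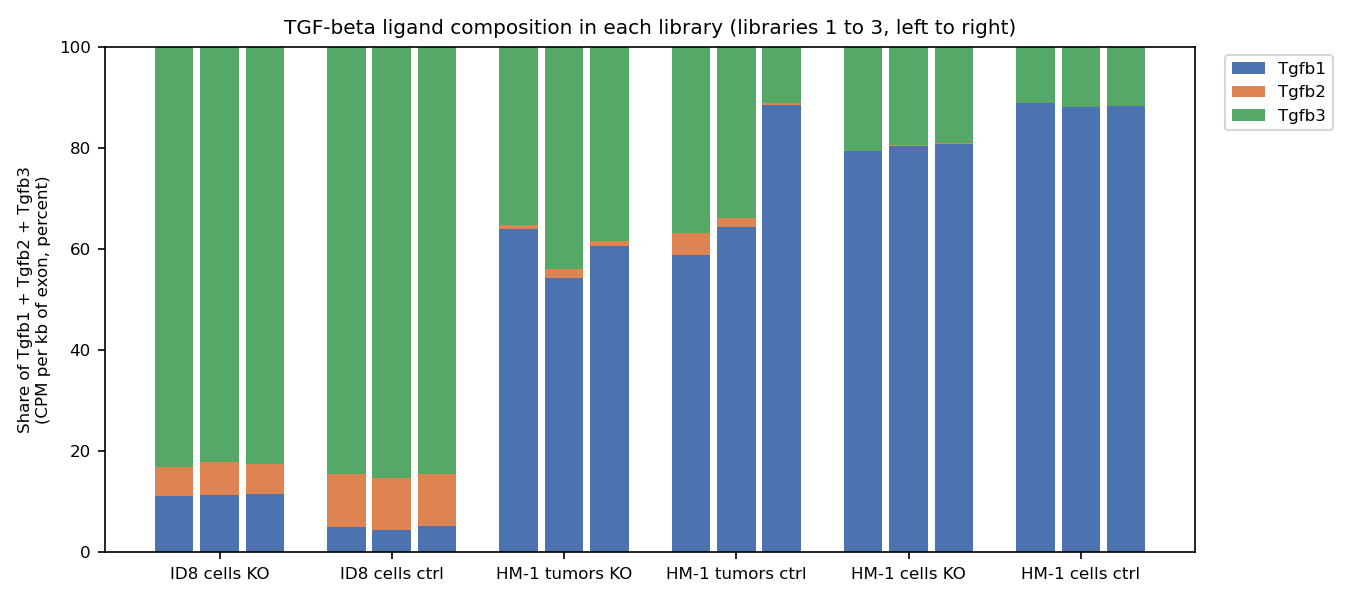
Percent of the summed Tgfb1, Tgfb2 and Tgfb3 level (CPM per kilobase of exon) taken by each gene in each of the 18 libraries, with each Cd276KO group left of its control. Tgfb3 leads in ID8 cells and Tgfb1 in HM-1 cells, and control tumor library 3 has a Tgfb1 share of 88.4%.

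Inhba (chr13:16011851-16031621, plus strand) encodes the beta A subunit shared by activin A and inhibin A. It fell in ID8 cells labelled Cd276KO, which had 21.8, 22.5 and 20.7 CPM, against 45.7, 42.4 and 34.5 CPM in ID8 controls (-0.84 ± 0.09, edgeR adjusted p = 3.62e-08). It rose in HM-1 cells labelled Cd276KO, which had 67.4, 61.6 and 60.3 CPM, against 18.9, 34.4 and 34.5 CPM in HM-1 controls (1.15 ± 0.21, adjusted p = 0.00923). HM-1 control library 1 was the lowest, and the value without it was 0.93, still called. Cd276KO tumors had 156, 196 and 158 CPM, all above the 126, 121 and 117 CPM of control tumors (0.52 ± 0.11, adjusted p = 0.0476). That call held without control tumor 3 and was lost without control tumor 1 (0.53, adjusted p = 0.0914) or 2 (0.50, 0.1) and without Cd276KO tumor 1 (0.56, 0.148), 2 (0.43, 0.139) or 3 (0.60, 0.172), and with no filter (0.53, 0.0511). Tumors were above cells by 1.92 ± 0.22 in controls (adjusted p = 0.000968) and by 1.30 ± 0.09 under the Cd276KO label (adjusted p = 2.83e-06). ID8 and HM-1 controls differed by 0.44 ± 0.22 (adjusted p = 0.121), which became 0.21 and called (adjusted p = 0.0434) without HM-1 control library 1.

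All 3 Id genes rose in ID8 cells labelled Cd276KO, where Bmp2, Bmp4 and Grem1 were lower. Id1 (chr2:152736251-152737410, plus strand) had 107, 105 and 115 CPM there, against 45.5, 43.0 and 47.4 CPM in ID8 controls (1.34 ± 0.06, edgeR adjusted p = 1.78e-14). Id2 (chr12:25093799-25097140, minus strand) had 46.9, 44.5 and 44.5 CPM, against 33.2, 36.8 and 32.6 CPM in ID8 controls (0.48 ± 0.07, adjusted p = 1.75e-06). Id3 (chr4:136143497-136145755, plus strand) had 77.03, 74.4 and 70.2 CPM, against 24.6, 20.2 and 26.0 CPM in ID8 controls (1.73 ± 0.08, adjusted p = 1.34e-13). No Cd276KO library overlapped a control for any of them, but the share of all genes with groups apart was not counted. Of all genes, 60.7% were called in this comparison. Of the Id products, ID1 and ID3 are known for roles in vessel growth and proliferation, and ID2 for roles in lymphocyte and mammary development.

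No Id gene was called higher in HM-1 cells. Id2 fell, with 38.4, 37.2 and 39.1 CPM in Cd276KO cells, against 80.7, 66.9 and 69.0 CPM in controls (-0.88 ± 0.10, edgeR adjusted p = 0.00132). Id1 had 157, 161 and 166 CPM, against 229.8, 166 and 168 CPM in controls (-0.18 ± 0.14, adjusted p = 0.384). Id3 had 140.03, 148 and 143 CPM, against 209, 168 and 168 CPM in controls (-0.30 ± 0.11, adjusted p = 0.0868). The high control of both genes was library 1. Without it Id1 was 0.0039 (adjusted p = 0.942), while Id3 was -0.18 and was called (adjusted p = 0.000202).

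In tumors Id2 was the one Id gene called. Id2 fell to 19.4, 17.5 and 16.0 CPM in Cd276KO tumors, against 64.3, 48.6 and 91.4 CPM in control tumors (-1.92 ± 0.27, edgeR adjusted p = 0.0253). The groups were far apart, but the call was lost without Cd276KO tumor 1 (-2.02, adjusted p = 0.0949), 2 (-1.89, 0.0938) or 3 (-1.83, 0.154). Id3 had 209.8, 145 and 186 CPM, against 104, 123 and 36.9 CPM in control tumors (1.10 ± 0.40, adjusted p = 0.155). Every Cd276KO tumor was above every control tumor for Id3, and DESeq2 called it (adjusted p = 0.0392). Id1 had 78.6, 49.0 and 71.7 CPM, against 47.7, 56.6 and 38.5 CPM in control tumors, with overlap (0.53 ± 0.22, adjusted p = 0.199). Summed macrophage markers (8 of 8 with counts) were also lower in Cd276KO tumors, at 616 to 1089 CPM, against 1222 to 1976 CPM in control tumors, and those of neutrophils (6 of 6) were 8.94 to 13.4 CPM, against 31.1 to 118 CPM. T and NK cell markers (8 of 8) summed to 2.78 to 6.398 CPM in Cd276KO tumors, against 7.78 to 16.6 CPM in control tumors, and platelet and erythroid markers (4 of 4) to 15.5 to 23.2 CPM, against 29.6 to 118.9 CPM. The ranges overlapped for Ptprc, listed for all immune cells, at 17.9 to 39.1 CPM in Cd276KO tumors, against 32.1 to 63.5 CPM in control tumors. They also overlapped for B cell markers (1.34 to 2.25 CPM, against 2.03 to 4.64 CPM) and endothelial markers (136 to 203 CPM, against 70.1 to 268 CPM). Skeletal muscle markers (5 of 5) summed to 88.5 to 697 CPM in Cd276KO tumors, against 1.64 to 122 CPM in control tumors. The part of these cells in the Id2, Id3 and Inhba values was not tested.

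Against the cells, Id1 was lower in tumors by -2.13 ± 0.22 in controls (edgeR adjusted p = 0.000708) and by -1.41 ± 0.17 under the Cd276KO label (adjusted p = 0.000167). Id2 was lower under the Cd276KO label (-1.25 ± 0.10, adjusted p = 5.09e-06) and was -0.22 ± 0.25 in controls (adjusted p = 0.515). Id3 was lower in control tumors (-1.21 ± 0.40, adjusted p = 0.0462) and was 0.20 ± 0.14 under the Cd276KO label (adjusted p = 0.206). The Id3 call in controls was lost without HM-1 control library 1 (-1.08, adjusted p = 0.122), 2 (-1.30, 0.078) or 3 (-1.30, 0.0764) and without control tumor 1 (-1.35, 0.0692), and with no filter (-1.33, 0.0730). Under the Cd276KO label Id3 was 0.34 and called without Cd276KO tumor 2 (adjusted p = 0.0012). All 3 Id genes were lower in ID8 controls than in HM-1 controls, by -2.10 ± 0.16 for Id1, -1.12 ± 0.11 for Id2 and -2.99 ± 0.16 for Id3 (adjusted p = 1.18e-05, 6.83e-05 and 1.34e-06).

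**Figure D3:**
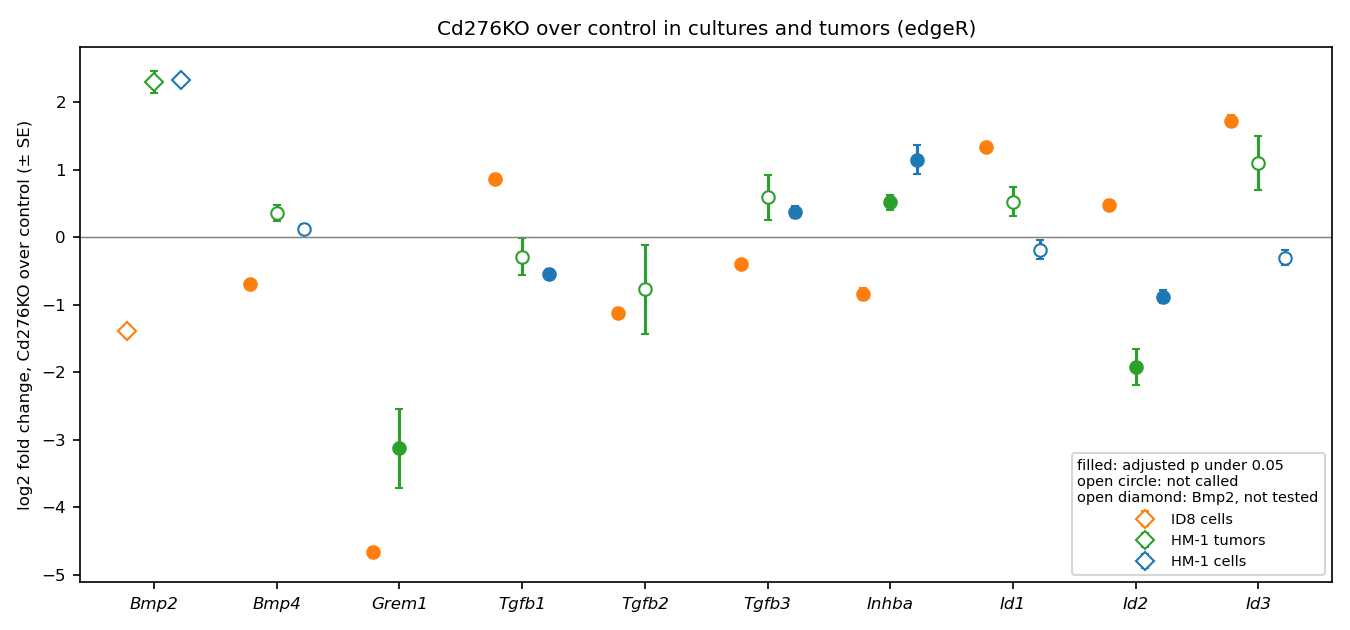
Log2 fold change of Cd276KO over control with its SE for the 10 genes in ID8 cells, HM-1 tumors and HM-1 cells. The 9 tested genes are filled where called, Bmp2 is an open diamond without a test, and Grem1 and Tgfb2 have no value in HM-1 cells. In ID8 cells all 3 Id genes and Tgfb1 lie above 0 and the other ligands and Grem1 below it.

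Counted over the 9 genes other than Bmp2, 9 of 9 were called in ID8 cells, 4 higher and 5 lower, where 60.7% of all genes tested were called (29.4% higher and 31.3% lower). In tumors 3 of 9 were called, 1 higher and 2 lower, against 5.38% of all genes (2.2% and 3.18%). In HM-1 cells 7 of the 9 passed the filter on low counts and 4 were called, 2 higher and 2 lower, against 27.7% of all genes (11.6% and 16.1%). The tumor count was 0 without any 1 of the Cd276KO tumors, 1 without control tumor 1 or 2, and 3 without control tumor 3. In the same fits 1, 0 and 0 of all genes were called without Cd276KO tumor 1, 2 and 3, and 353, 263 and 1685 without control tumor 1, 2 and 3. In HM-1 cells all-gene calls also moved, to 7491 of 12685 genes without control library 1, the one that stood apart, and to 1741, 1815 and 1725 without Cd276KO library 1, 2 and 3. With all 10 genes tested, 8 were called between tumors and cells in controls (6 higher and 2 lower, against 41.8% of all genes, 25.3% higher and 16.6% lower) and 8 under the Cd276KO label (6 higher and 2 lower, against 75.7%, 41.2% higher and 34.5% lower). The 6 higher were Bmp4, Grem1, Tgfb1, Tgfb2, Tgfb3 and Inhba in both. Grem1 and Tgfb2, at 0 to 9 counts a library in HM-1 cells, passed the filter here only through the tumors and so had to differ. Between ID8 and HM-1 controls 9 of 10 were called (5 higher and 4 lower, against 58.3%, 28.8% higher and 29.6% lower). Of the 5 higher, Grem1 and Tgfb2 passed that filter only through ID8 controls and so had to differ. Bmp2, also among the 5, was chosen from contrasts that used both control groups. The median log2 fold change of the tested members was -0.39 in ID8 cells, 0.36 in tumors and -0.18 in HM-1 cells, against -0.0083, -0.030 and -0.013 over all genes.

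The difference between the Cd276KO contrasts of the 2 lines was tested as an interaction. It was called for the 7 genes that had enough counts in both lines, 4 higher and 3 lower in ID8 than in HM-1 cells, against 40.4% of all genes (19.8% higher and 20.7% lower). Grem1 and Tgfb2 passed the filter only through ID8 cells, where they are high, and their values are given without being counted. The contrast was more positive in ID8 cells for Id3 (2.01 ± 0.15, edgeR adjusted p = 5.78e-07), Id1 (1.51 ± 0.16, 1.06e-05), Tgfb1 (1.39 ± 0.11, 7.48e-07) and Id2 (1.35 ± 0.12, 1.97e-06). It was more negative for Inhba (-1.99 ± 0.24, adjusted p = 3.61e-05), Bmp4 (-0.83 ± 0.09, 1.18e-05) and Tgfb3 (-0.78 ± 0.10, 5.15e-05). For Grem1 (-3.51 ± 0.89, adjusted p = 0.00681) and Tgfb2 (-1.32 ± 0.46, 0.0443) the HM-1 side rests on 6 to 16 counts a group. The Grem1 call was lost without HM-1 Cd276KO library 3 (-2.55, 0.145). The Tgfb2 call was lost without HM-1 control library 2 (-0.86, 0.224), without HM-1 Cd276KO library 1 (-1.14, 0.177), 2 (-1.40, 0.066) or 3 (-1.39, 0.0671), without ID8 control library 1 (-1.33, 0.0501) or 3 (-1.29, 0.0528), and without ID8 Cd276KO library 1 (-1.27, 0.0589) or 3 (-1.30, 0.0549). Over all 18 libraries the calls of Grem1 (-3.49, adjusted p = 0.139), Tgfb2 (-1.29, 0.494) and Tgfb3 (-0.75, 0.0969) were lost, and that of Tgfb2 also with no filter (-1.33, 0.0829).

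Between HM-1 tumors and HM-1 cells, the Cd276KO contrasts of the same 9 genes gave 0 calls of a difference by edgeR, against 2.84% of all genes (1.72% higher and 1.12% lower). At an unadjusted p under 0.05 there were 4 (Id1, Id2, Id3 and Inhba), and DESeq2 called 1, Id2 (-1.04, adjusted p = 0.0154). The values were 1.37 ± 0.47 for Id3, 0.70 ± 0.28 for Id1, -0.63 ± 0.26 for Inhba and -1.03 ± 0.27 for Id2 (edgeR adjusted p = 0.180, 0.267, 0.295 and 0.0752). Without control tumor 3, the library that stood apart, edgeR called Id2 (-0.77, adjusted p = 0.0472), Id3 (1.007, 0.0202) and Tgfb1 (0.58, 0.0251). Without control tumor 2 it called Id2 (-1.23, adjusted p = 0.0274).

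A set of 93 other genes of the pathway, in 8 lists, was read in the same fits. In ID8 cells 39 of 57 tested genes were called, 17 higher and 22 lower, where 60.7% of all genes were. In tumors 14 of 70 were called, 9 higher and 5 lower, against 5.38% of all genes, and in HM-1 cells 29 of 54, 21 higher and 8 lower, against 27.7%. The median log2 fold change was -0.011, 0.11 and 0.29 in these 3 comparisons, against -0.0083, -0.030 and -0.013 over all genes. The HM-1 count was 17, 14 and 16 without Cd276KO library 1, 2 and 3. The tumor count was 5 without control tumor 1 or 2, 18 without control tumor 3 and 0 without any 1 of the Cd276KO tumors, so every tumor call of a pathway gene named hereafter was lost in those 3 fits. Between tumors and cells 31 of 65 were higher and 0 lower in controls, and 45 were higher and 10 lower under the Cd276KO label, against 41.8% and 75.7% of all genes called. Between ID8 and HM-1 controls 29 of 64 were higher and 24 lower, against 58.3%. The Cd276KO contrast was more positive in ID8 than in HM-1 cells for 6 of 63 and more negative for 22, against 40.4%. Counts between groups include genes that passed the filter only through the group where they were high and so had to differ. Gdf6 is an example, with 0 CPM in HM-1 controls and 175 CPM in ID8 controls. The count for the contrasts of the lines also holds genes that passed only through ID8 cells, such as Fstl1 (0.065 CPM in HM-1 controls, 277 CPM in ID8 controls). The number of such pathway genes was not counted. Between tumors and HM-1 cells it differed for 4 of 70, 1 higher and 3 lower, against 2.84%. It was more positive in tumors for Fst (0.87 ± 0.15, edgeR adjusted p = 0.0121) and more negative for genes that include Ltbp1 (-1.80 ± 0.31, 0.0105) and Furin, a protease that matures these ligands (-0.77 ± 0.17, 0.0313). That count was 1 without HM-1 Cd276KO library 1, and 2 without HM-1 Cd276KO library 2 or 3, HM-1 control library 2, or Cd276KO tumor 1 or 3. Ltbp1 was called in each of those fits. Fst was lost without HM-1 control library 2 (adjusted p = 0.0586), HM-1 Cd276KO library 1 (0.0808) or control tumor 2 (0.0587). Furin was lost without any 1 of the Cd276KO HM-1 libraries, control tumor 1, or Cd276KO tumor 1 or 3 (adjusted p of 0.0628 to 0.107).

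Among the other ligands, Gdf6, a BMP-type ligand of joint and eye development, rose in ID8 cells to 256, 275.5 and 281 CPM under the Cd276KO label, against 174, 172 and 180.5 CPM in controls (0.70 ± 0.06, edgeR adjusted p = 3.52e-10). It had no count in HM-1 controls, so with 3 counts taken as the floor of the group, ID8 controls were at least 3896-fold higher. This floor covers counting error only. Inha, the inhibin alpha subunit that pairs with the Inhba product, rose in tumors to 12.3, 9.62 and 14.9 CPM, against 3.48, 6.10 and 5.00 CPM in control tumors (1.37 ± 0.29, adjusted p = 0.0489). Inhbb, the beta B subunit, had no count in HM-1 cells of either group. The Inha call in tumors was also lost without control tumor 1 (1.16, adjusted p = 0.0785) or 2 (1.55, 0.0749). Inhbb was at least 577-fold higher in control tumors and at least 383-fold higher in Cd276KO tumors on the same floor.

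Fst and Bmper, among the other secreted antagonists, moved in opposite directions in the cultures. Fst encodes follistatin, which binds activins, and Bmper a BMP-binding protein. Fst had 22.5 to 23.6 CPM in Cd276KO ID8 cells, against 11.7 to 14.6 CPM in controls (0.94 ± 0.09, edgeR adjusted p = 4.25e-09). In HM-1 cells Fst had 95.3, 93.3 and 89.0 CPM under the Cd276KO label, against 242, 220.3 and 219 CPM in controls (-1.26 ± 0.08, adjusted p = 0.000121). Bmper fell in ID8 cells (-0.78 ± 0.055, adjusted p = 2.60e-11) and rose in HM-1 cells (1.69 ± 0.11, adjusted p = 0.000139), where it had 8.56 to 9.17 CPM, against 2.60 to 3.08 CPM in controls. Fstl1, a follistatin-related protein, fell in ID8 cells (-1.41 ± 0.06, adjusted p = 9.24e-16). In tumors 1 of 10 tested antagonists was called, Nbl1, a DAN-family BMP antagonist (-0.60 ± 0.11, adjusted p = 0.038), and this was also lost without control tumor 1 (adjusted p = 0.0707) or 2 (0.0576).

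Among receptors, Tgfbr3, the betaglycan co-receptor that presents TGF-beta2 and inhibin, fell in HM-1 cells (-1.40 ± 0.18, edgeR adjusted p = 0.00232) and in tumors (-1.31 ± 0.26, adjusted p = 0.0399). Tumors labelled Cd276KO had 33.0, 33.1 and 37.7 CPM, against 66.6, 75.6 and 120.3 CPM in control tumors. ID8 controls had no Tgfbr3 count, at least 1376-fold below HM-1 controls. Rgmb, a BMP co-receptor, rose in tumors to 427, 292 and 377 CPM, against 119, 194 and 166 CPM in control tumors (1.23 ± 0.24, adjusted p = 0.0392). The Rgmb call was also lost without control tumor 1 (adjusted p = 0.0623) or 2 (0.0655), and the Tgfbr3 call without control tumor 2 (0.0662). Amhr2, the receptor of anti-Muellerian hormone, fell in HM-1 cells (-2.47 ± 0.20, adjusted p = 0.000306) and in ID8 cells (-0.67 ± 0.14, adjusted p = 0.0012). Bmpr1b, a type I BMP receptor, rose in ID8 cells to 5.00, 5.52 and 4.45 CPM, against 2.77, 2.55 and 2.13 CPM in controls (1.08 ± 0.15, adjusted p = 2.36e-06).

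The inhibitory SMAD genes Smad6 and Smad7, which are themselves induced by the pathway and damp it, were called higher in all 3 Cd276KO contrasts. Of all genes, 29.4% were called higher in ID8 cells, 2.2% in tumors and 11.6% in HM-1 cells. The share called higher in all 3 was not counted. Smad7 had 28.0, 26.4 and 31.3 CPM in Cd276KO ID8 cells, against 16.0, 18.5 and 15.7 CPM in controls (0.85 ± 0.08, edgeR adjusted p = 9.12e-09). It had 99.4, 95.5 and 109 CPM in Cd276KO tumors, against 58.2, 71.7 and 46.2 CPM in control tumors (0.83 ± 0.15, adjusted p = 0.0373), and rose by 0.46 ± 0.08 in HM-1 cells (adjusted p = 0.00627). None of these groups overlapped. Smad6 rose by 0.57 ± 0.09, 1.202 ± 0.26 and 0.54 ± 0.12 in ID8 cells, tumors and HM-1 cells (adjusted p = 1.43e-05, 0.0483 and 0.0189). In tumors the calls were also lost without control tumor 1 (Smad7 0.0773 and Smad6 0.0739 as adjusted p) or, for Smad6, control tumor 2 (0.0727). In HM-1 cells the Smad6 call was lost without control library 3 (0.0614) or Cd276KO library 2 (0.0680) or 3 (0.0688).

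Of the SMADs of the BMP branch, Smad1 had 0 counts in all 3 Cd276KO ID8 libraries and 87 in the 3 ID8 controls, and was at least 26.4-fold lower on the same floor. It lay under the mean set for naming and was chosen after its values were seen. ID8 controls had 0.98, 1.32 and 0.72 CPM of Smad1, while HM-1 cells had 24.5 to 25.2 CPM under the Cd276KO label and 21.5 to 24.6 CPM in controls. Smad5, given outside the naming rule, had the highest level of these SMADs in ID8 cells. It averaged 64.3 CPM under the Cd276KO label, against 86.6 CPM in controls, and was called lower (-0.35 ± 0.06, edgeR adjusted p = 2.94e-05). Smad9 rose in ID8 cells to 2.69, 2.67 and 2.50 CPM, against 1.17, 1.29 and 1.98 CPM in controls (0.91 ± 0.21, edgeR adjusted p = 0.000742). Of the other BMP-responsive genes, a list that also holds Smad6, Smad7 and Smad9, 4 were called higher and 1 lower of 7 tested in ID8 cells. In tumors 2 were higher and 0 lower of 7, and in HM-1 cells 4 and 0 of 4. Of all genes, 60.7%, 5.38% and 27.7% were called. The gene called lower was Dlx3 (-0.61 ± 0.09, edgeR adjusted p = 3.87e-06), given outside the naming rule. Atoh8, a helix-loop-helix factor, rose in ID8 cells by 1.09 ± 0.09 (adjusted p = 8.88e-10) and in HM-1 cells by 1.17 ± 0.10 (adjusted p = 0.000417). In tumors Atoh8 had 67.3, 36.1 and 57.2 CPM under the Cd276KO label and 8.30, 21.4 and 1.98 CPM in controls, apart but not called (2.41 ± 0.74, adjusted p = 0.105). Bambi, a pseudoreceptor that dampens BMP and TGF-beta signals, rose in HM-1 cells by 0.92 ± 0.13 (adjusted p = 0.00316). The E protein gene Tcf4, a binding partner of ID proteins, fell in ID8 cells (-0.99 ± 0.08, adjusted p = 1.94e-10).

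**Figure D4:**
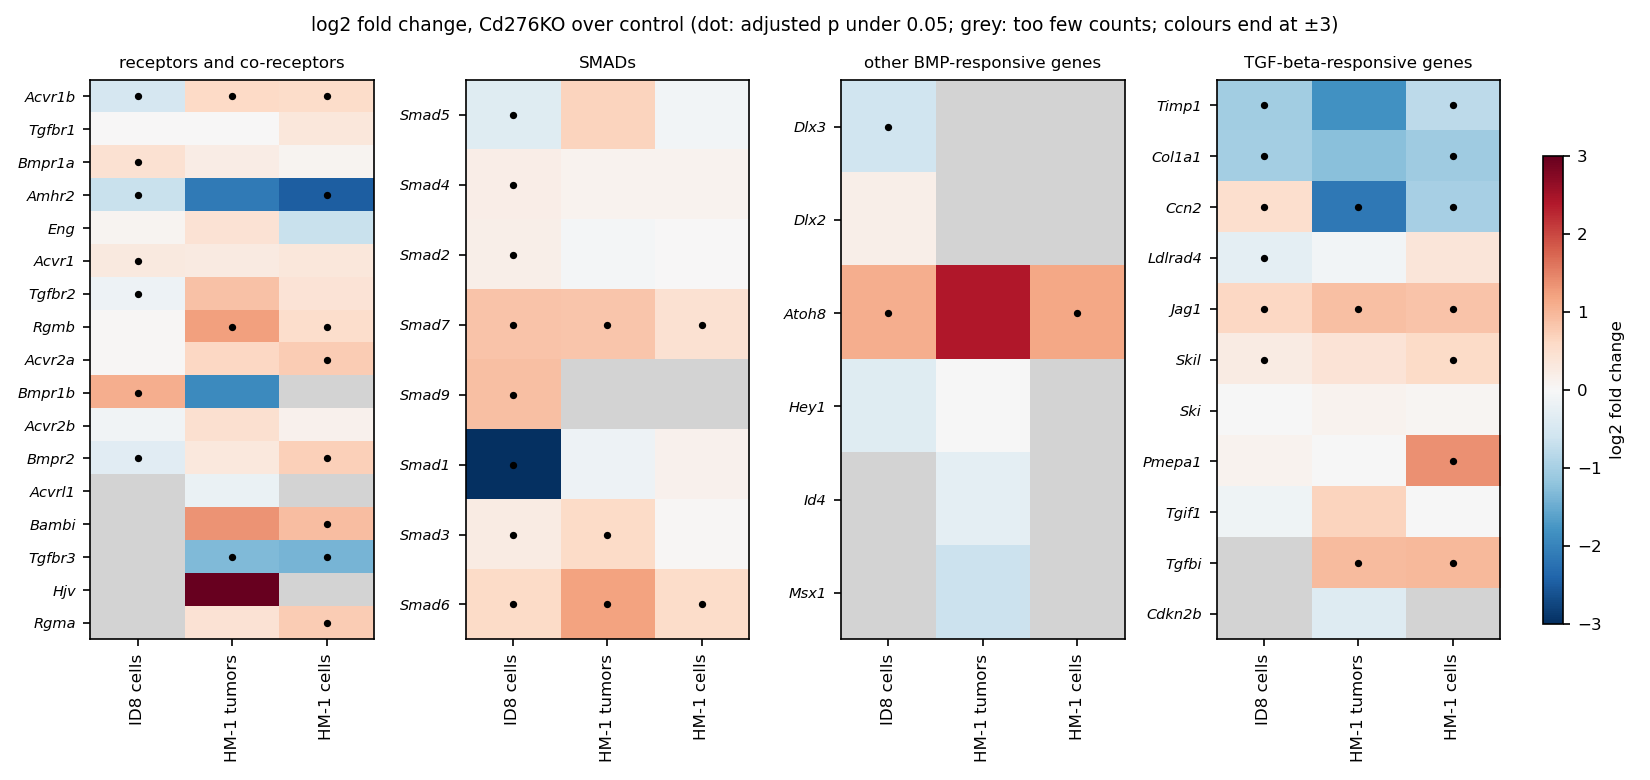
Log2 fold change of Cd276KO over control for genes of the receptor, SMAD and responsive lists in ID8 cells, HM-1 tumors and HM-1 cells, with a dot where edgeR's adjusted p was under 0.05 and grey where counts were too few to test. Genes of several lists are shown once. Smad6 and Smad7 carry a dot in all 3 columns, and Smad1 goes past the end of the scale in ID8 cells only.

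TGF-beta-responsive genes were called in both directions in each Cd276KO contrast, 4 higher and 3 lower of 11 tested in ID8 cells, 3 and 2 of 13 in tumors, and 5 and 3 of 12 in HM-1 cells. Of all genes, 60.7%, 5.38% and 27.7% were called in the same comparisons. In tumors Ccn2, a matricellular protein, fell to 17.4, 24.1 and 29.6 CPM under the Cd276KO label, against 177, 59.8 and 84.2 CPM in control tumors (-2.13 ± 0.41, edgeR adjusted p = 0.0389). Besides the Cd276KO tumors, the Ccn2 call was lost without control tumor 3 (adjusted p = 0.0581). Tgfbi, a secreted matrix protein, rose in the same tumors by 0.94 ± 0.14 (adjusted p = 0.0258) and in HM-1 cells by 0.97 ± 0.16 (adjusted p = 0.00511). Pmepa1, which limits TGF-beta signalling, rose in HM-1 cells by 1.38 ± 0.09 (adjusted p = 0.000121), where Ccn2 fell (-1.002 ± 0.09, adjusted p = 0.000515). In ID8 cells Col1a1 fell (-1.009 ± 0.07, adjusted p = 7.31e-12), as did Timp1 (-1.05 ± 0.06, adjusted p = 9.48e-13). The tumor calls of Tgfbi and Ltbp4 were also lost without control tumor 2 (adjusted p = 0.0582 and 0.0568). Latent TGF-beta is stored on LTBP and fibrillin proteins. Ltbp1 fell in tumors to 43.4, 50.1 and 42.6 CPM, against 148, 157 and 301 CPM in control tumors (-2.14 ± 0.32, adjusted p = 0.026), while Ltbp4 rose to 618, 585 and 569 CPM, against 253, 313 and 322 CPM in control tumors (1.03 ± 0.15, adjusted p = 0.0257). In ID8 cells Fbn1, the fibrillin 1 gene, fell (-4.96 ± 0.22, adjusted p = 7.24e-15), as did Thbs1, an activator of latent TGF-beta (-2.13 ± 0.06, adjusted p = 6.23e-19).

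**Figure D5:**
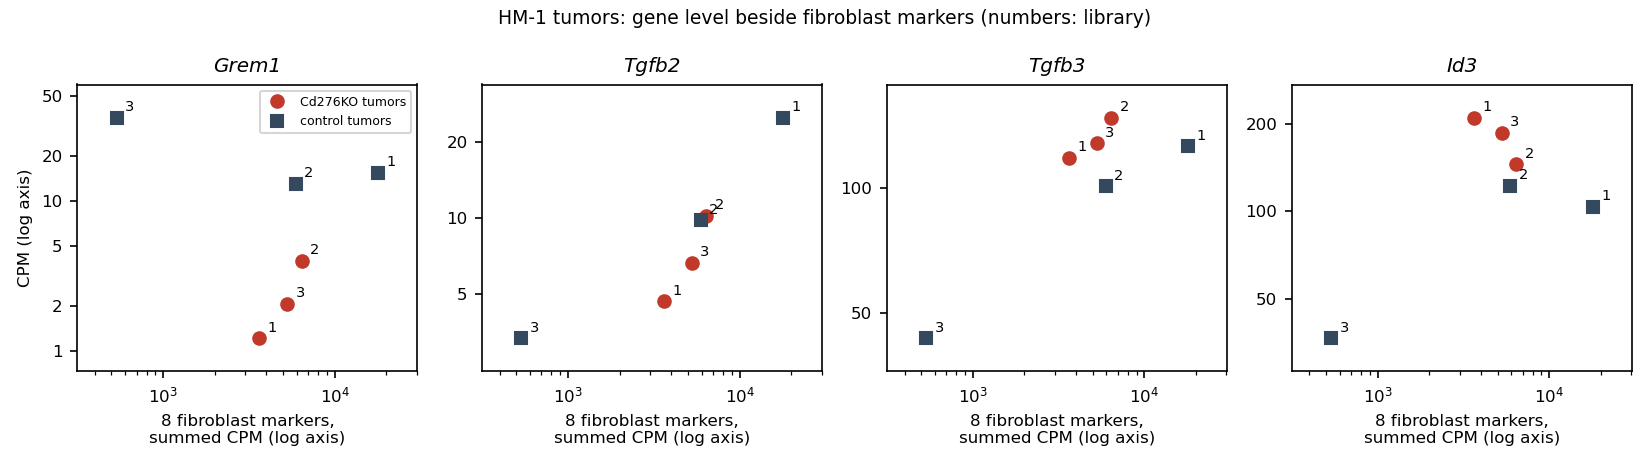
CPM of Grem1, Tgfb2, Tgfb3 and Id3 in the 6 HM-1 tumors against the summed CPM of 8 fibroblast markers (both axes log), with library numbers beside the points. Tgfb2 follows the marker sum in order, while Grem1 is highest in control tumor 3, which has the lowest sum at 535 CPM.

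The tumor values of Grem1, Tgfb2, Tgfb3 and Id3 beside the fibroblast markers show which library sets each control spread. Control tumor 3, lowest in fibroblast markers, was the lowest tumor for Tgfb2, Tgfb3 and Id3 and the highest for Grem1. Control tumor 1, with the highest marker sum of 17910 CPM, was highest for Tgfb2 only. The part of host fibroblasts in these levels was not tested.

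The genes whose pattern was most like that of Bmp2 over the 18 libraries were sought among 10291 genes by Pearson's r of log2(CPM + 0.5). They were Zfp777 (r = 0.948), Zxdc (0.927), Zfp746 (0.895), Trim24 (0.894) and Lmln (0.888). The libraries are not independent points, since they share 2 lines and 6 groups. The pattern of Bmp2 over these libraries is also what chose the gene, so the ranking is a description only. Zfp777 averaged 22.5 CPM in Cd276KO ID8 cells and 26.4 CPM in ID8 controls, 40.04 CPM in Cd276KO tumors and 23.3 CPM in control tumors, and 42.1 CPM in Cd276KO HM-1 cells and 23.0 CPM in HM-1 controls. Of the other 9 genes, r with Bmp2 ranged from -0.77 for Id2 to 0.60 for Inhba.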

How the data were processed

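Per the submitters' processing notes, the authors used Trim Galore, STAR and HTSeq on GRCm38 (mm10), with versions, annotation and strand setting not given in the sources used here, so reads of overlapping or antisense genes may be shared. They deposited raw counts of reads for each gene. Groups and library numbers came from the titles. Symbols, positions and exon lengths came from GENCODE M21, which matched 54723 of 54752 identifiers, 53861 of them with their version. Levels are CPM of the library total, divided by exon kilobases where genes are compared. Differences were tested with edgeR 4.0.16 (R 4.3.3) by robust quasi-likelihood fits over the libraries compared, after TMM scaling and filterByExpr, and called at a Benjamini-Hochberg adjusted p under 0.05 over all genes tested. Differences between contrasts were interactions over 12 libraries. The SE is the log2 fold change divided by the square root of F. Statements that groups did not overlap describe the libraries only, and the share of all genes with groups apart was not counted. Fits were tested on simulated counts.

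Alternatives were DESeq2 1.42.0, RLE factors, no filter on low counts, a fit over all 18 libraries, the library number as a block, and each library left out. Leaving out both libraries that stood apart was chosen after seeing the data. The members, the 93 pathway genes and the marker lists were chosen with earlier results of these data known. From each pathway list, up to 3 called genes with the largest change and a mean of at least 1 CPM could be named in a comparison, except 1 that is not reported here, and the 5 genes most like Bmp2 were taken at a mean of at least 5 CPM. Promoters came from RefSeq (GRCm38.p6).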

Additional observations from a re-analysis of the deposited data

Results flagged for a closer look

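The Cd276KO contrast differed between ID8 and HM-1 cells by the interaction test in edgeR for the 7 genes with enough counts in both lines. Grem1 and Tgfb2 passed the filter only through ID8 cells, and their values are given without being counted. On the log2 scale, ID8 minus HM-1, the difference was -0.83 for Bmp4 (adjusted p = 1.18e-05), -3.51 for Grem1 (0.00681), 1.39 for Tgfb1 (7.48e-07), -1.32 for Tgfb2 (0.0443), -0.78 for Tgfb3 (5.15e-05), -1.99 for Inhba (3.61e-05), 1.51 for Id1 (1.06e-05), 1.35 for Id2 (1.97e-06) and 2.01 for Id3 (5.78e-07). For Tgfb1, Tgfb3, Inhba and Id2 the contrast was called in both lines and ran in opposite directions. For Bmp4, Id1 and Id3 it was called in ID8 cells and not in HM-1 cells, and for Grem1 and Tgfb2 the HM-1 counts were too low for a test of their own. Of all genes, 40.4% were called in the same interaction.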

How the results depend on the processing

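Same-numbered deviations correlated at 0.33, 0.062 and 0.23 in ID8 cells. All 3 ID8 libraries matched their own number best, and the replicate block raised all-gene calls there from 7849 to 8329. The correlations were -0.68, 0.041 and -0.11 in tumors, with 0 best matches. They were 0.0097, 0.0071 and 0.0051 in HM-1 cells, with 2 best matches. Outside ID8 cells the replicate numbers thus gave no clear pairing. With the replicate block, 0 of the 9 members, 0 pathway genes and 0 of all genes were called in tumors, and 2 pathway genes for the difference between the tumor and HM-1 contrasts. Members not called with the block in other comparisons were Tgfb3 in HM-1 cells (adjusted p = 0.0569), Tgfb1 between control tumors and cells (0.0735) and Tgfb2 for the difference between the lines (0.0562). In tumors DESeq2 called 5 members and 23 pathway genes, and the fit over 18 libraries 6 and 30. That fit lost Tgfb2, Tgfb3 and Id2 in ID8 cells (adjusted p = 0.0616, 0.222 and 0.0566), and gave 21 pathway genes there, 50 between control tumors and cells, 17 for the difference between the lines, and 7, with 2 members, for tumors against cells. DESeq2 called 1 member there, and leaving out both libraries that stood apart gave 3 members and 12 pathway genes. With 1 library left out, pathway calls were 14 to 40 in HM-1 cells, 0 to 18 in tumors and 1 to 6 for tumors against cells, and member calls 0 to 3 in tumors and 0 to 3 for tumors against cells. Signs changed only for differences that were not called: Id1 in HM-1 cells (-0.27 to 0.0039 with 1 library left out), Tgfb1 (-0.45 to 0.10) and Tgfb2 (-1.20 to 0.16) in tumors, Bmp2 between tumors and cells in controls (-0.11 to 0.10, -0.13 with no filter, -0.023 over 18 libraries and -0.011 with the block) and under the Cd276KO label (-0.16 to 0.040), and Tgfb2 (-1.43 to 0.018) and Tgfb3 (-0.14 to 0.55, and -0.055 without both libraries) for the difference between tumors and cells. The causes were not tested. RLE factors gave 75 results with the same call and 1 weaker, Id3 between control tumors and cells (-1.19, adjusted p = 0.052). Grem1 and Tgfb2 had 0 to 9 counts a library in HM-1 cells, too few to test.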
